A study of Homo sapiens with 6 samples.

Results

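Heat shock proteins, their DNAJ co-chaperones, the cytosolic chaperonin CCT and the BAG proteins were followed in human endoderm and embryonic stem cells at the passage from G1 to S phase. The members were taken by gene symbol: names that start with HSP and a letter A to H or a digit, DNAJA, DNAJB and DNAJC with a number, CCT with a number, TCP1, and BAG with a number. The rule found 59 of 9588 gene names, on 62 of the 14686 genomic regions measured. For DNAJC5, DNAJC7 and HSPA9, which have more than 1 region, the region with the highest mean was used. All 59 passed the filter on low values, and measured values entered only the choice of region.

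The 6 libraries hold the 3' ends of polyadenylated RNA from H9, an established line of human embryonic stem cells (hESCs), at passage 51. The endoderm libraries were labelled G1, G1/S and S at 0, 3 and 6 h on day 6 of differentiation. They came from hESCs put in RPMI medium with activin A at 100 ng/ml and given fresh medium on day 3. Fetal bovine serum was at 0% for the first day, then at 0.2% for a day, and at 2% afterwards. The hESC libraries were labelled G1, G1/S and S at 0, 2 and 3 h on day 0. They were grown on growth factor reduced matrigel, in medium conditioned on mouse embryonic fibroblasts. There is 1 library for each cell type and phase, so the p-values measure only the spread among these 6 libraries of 1 line. Serum, activin A and medium differ along with cell type and cannot be told apart from it. How cells were brought into phase is not given in the sources used here.

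HSP70 proteins hold unfolded stretches of other proteins in a cycle driven by ATP. J proteins, the DNAJ families, bring them clients and speed ATP hydrolysis, while BAG proteins, HSPBP1 and HSP110-type proteins release ADP. HSP90 finishes folding of kinases and receptors, CCT encloses actin and tubulin, HSP60 works in mitochondria, and small HSPs hold aggregating proteins without ATP. The stress-induced members are known targets of HSF1, which binds repeated GAA units in either orientation, and the endoplasmic reticulum (ER) members are induced by unfolded proteins in the ER.

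By role, 4 members belong to the HSP90 family, 7 to the HSP70 and HSP110 families, 1 is mitochondrial HSP60, 8 are CCT subunits, and 5 carry small HSP names. Another 2 are DNAJA, 6 DNAJB and 19 DNAJC proteins, and 4 are BAG proteins or HSPBP1. The remaining 3 fit the spelling only: HSPG2 is the matrix proteoglycan perlecan, HSPC111 is the older symbol of NOP16, a nucleolar protein, and HSPC152 is that of TRMT112, a methyltransferase subunit. Of the small HSP names, HSPB11 is now IFT25, a protein of cilia transport. HSP90AB3P is a pseudogene copy of HSP90AB1, and HSPA1B is nearly identical to HSPA1A. Reads may be split between such copies, so those values are uncertain.

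Promoters are shown for 5 members, picked by their motifs and their results below. They are the 250 bases before and 50 after the annotated start, from RefSeq on GRCh38.p14. HSPB8, HSPA1B and DNAJC15 are the members higher in endoderm that hold a pair of GAA units. HSPA8 holds the 3-unit form and lay just outside the threshold. HSP90B1, an ER member, holds the ER stress element. Capitals mark the matches.
HSPB8 (chr12:119178681-119178980, plus strand): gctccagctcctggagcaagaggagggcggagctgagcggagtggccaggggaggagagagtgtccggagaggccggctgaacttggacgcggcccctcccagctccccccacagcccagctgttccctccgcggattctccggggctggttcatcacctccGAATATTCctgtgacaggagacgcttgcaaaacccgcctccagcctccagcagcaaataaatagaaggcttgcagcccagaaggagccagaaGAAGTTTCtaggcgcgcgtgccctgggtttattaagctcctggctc
HSPA1B (chr6:31827488-31827787, plus strand): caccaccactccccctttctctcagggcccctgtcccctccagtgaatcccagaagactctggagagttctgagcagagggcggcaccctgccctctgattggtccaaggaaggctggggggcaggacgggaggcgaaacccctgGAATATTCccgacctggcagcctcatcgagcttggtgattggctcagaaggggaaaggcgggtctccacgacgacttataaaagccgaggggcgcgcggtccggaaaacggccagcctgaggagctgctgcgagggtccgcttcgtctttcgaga
DNAJC15 (chr13:43023336-43023635, plus strand): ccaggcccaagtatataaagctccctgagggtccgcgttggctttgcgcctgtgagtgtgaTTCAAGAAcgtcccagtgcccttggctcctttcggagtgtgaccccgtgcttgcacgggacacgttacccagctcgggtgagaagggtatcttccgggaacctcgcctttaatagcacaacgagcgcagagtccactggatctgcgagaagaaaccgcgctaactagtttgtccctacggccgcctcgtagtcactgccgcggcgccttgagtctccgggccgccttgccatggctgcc
HSPA8 (chr11:123062087-123062386, minus strand): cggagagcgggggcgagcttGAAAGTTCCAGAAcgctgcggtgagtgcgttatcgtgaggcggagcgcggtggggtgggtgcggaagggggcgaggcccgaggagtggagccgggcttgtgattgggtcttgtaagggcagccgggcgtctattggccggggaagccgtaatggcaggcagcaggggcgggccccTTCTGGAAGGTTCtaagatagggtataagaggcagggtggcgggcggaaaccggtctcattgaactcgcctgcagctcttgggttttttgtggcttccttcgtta
HSP90B1 (chr12:103930160-103930459, plus strand): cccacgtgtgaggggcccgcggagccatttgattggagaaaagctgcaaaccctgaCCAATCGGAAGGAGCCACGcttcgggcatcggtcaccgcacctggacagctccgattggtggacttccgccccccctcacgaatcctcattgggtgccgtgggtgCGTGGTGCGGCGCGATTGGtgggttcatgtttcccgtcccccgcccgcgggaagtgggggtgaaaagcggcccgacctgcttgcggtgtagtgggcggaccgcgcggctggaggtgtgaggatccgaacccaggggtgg

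The letters searched on both strands were GAANNTTC and TTCNNGAA for 2 units, the same followed by 1 more unit after 2 bases for 3 units, and CCAAT then 9 bases then CCACG for the ER stress element. Matches of these forms may overlap, as in HSPA8. Promoters were matched for 51 of the 59 members. The 2-unit form lay in 11 of the 51 (21.6%), against 13.7% of 27305 promoters. They were the 3 members higher in endoderm shown above and 8 not called between types: DNAJA1, DNAJB6, HSPA8, HSPA9, CCT4, TCP1, HSPC111 and HSPB1. The 3-unit form lay in 3 (5.88%, DNAJA1, DNAJB6 and HSPA8), against 0.487% of all. The ER stress element lay in 2 (3.92%, HSPA5 and HSP90B1), against 0.0806%. A match describes these windows only, and says nothing of binding.

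The libraries held 2502792 to 5389666 reads in endoderm and 4194957 to 6203079 in hESCs. Values of 3 libraries are given below in the order G1, G1/S, S. Values below are the authors' deposited signal, reads divided by a size factor, in which 1 read is worth 0.591 to 1.71 and a count of 0 allows up to 1.77 to 5.13 (3 reads, counting error only). The labelled types carried their markers: 9 measured definitive endoderm markers summed to 9286 to 21817 in endoderm, against 505 to 666 in hESCs. The 8 measured hESC markers summed to 1230 to 1452 in endoderm, against 2301 to 2890 in hESCs. Of the other lineages, 3 mesoderm markers summed to 117 to 293 in endoderm and 74.4 to 89.5 in hESCs, and 3 trophoblast markers to 139 to 303 and 216 to 319. A further 3 neuroectoderm markers summed to 5051 to 11250 in endoderm and 5927 to 9019 in hESCs, and 4 fibroblast or stromal markers to 5127 to 7502 and 7785 to 10092. No measured marker was at 0 in every library of a type, and the part of other cells in the results was not tested. In such bulk samples fewer cells of a type and less RNA per cell cannot be told apart.

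Between the cell types, 9 of the 59 members differed (limma on log2(signal + 1) with phase as a term, adjusted p under 0.05 over 14657 regions). That is 15.3% of the members, against 14.5% of all regions. Endoderm was higher for 6 (10.2%, against 6.9% of all regions): DNAJC15, HSPB8, HSPA1B, DNAJB2, DNAJC1 and DNAJC2. It was lower for 3 (5.08%, against 7.6%): DNAJC18, HSPA12B and HSPB2. These shares are near the background, and each set of changed genes mixes J proteins with HSP70 or small HSP names. An unadjusted p under 0.05 was reached by 19 members by limma (32.2%), against 34.2% of all regions. Over all 59 members the median difference, endoderm minus hESC, was 0.30 on the log2 scale, with 43 above 0, against a median of 0.02 over all regions. By phase the members' median difference was 0.43 between the G1 libraries, 0.15 between those of G1/S and 0.26 between those of S. All endoderm libraries lay above all hESC libraries for 10 members (16.9%, against 14.7% of regions) and below them for 5 (8.47%, against 18.7%).

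**Figure D1:**
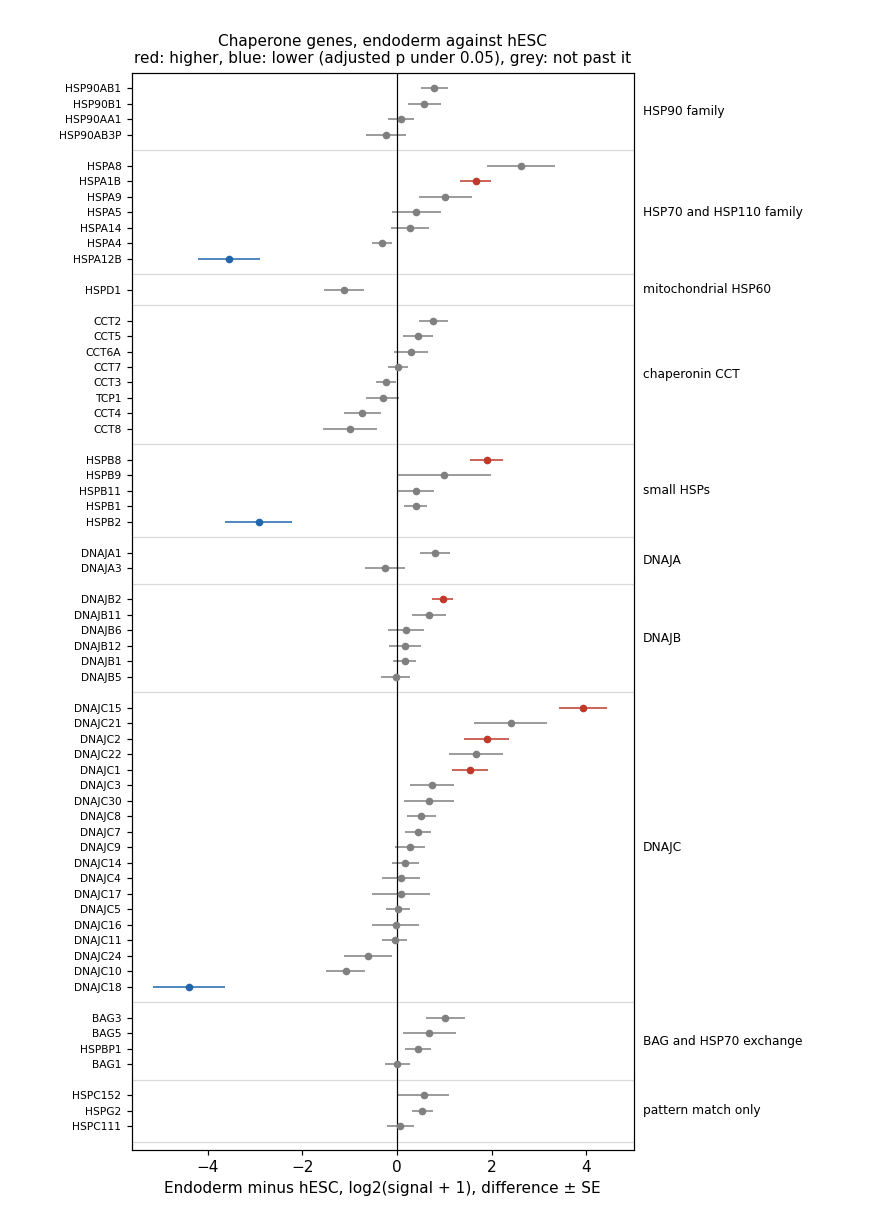
Difference between endoderm and hESC libraries for the 59 members, grouped by role, on the log2(signal + 1) scale, with points for the fitted difference and bars for its standard error (3 libraries of each type). Red points are the 6 members higher and blue the 3 lower in endoderm, from 3.93 for DNAJC15 to -4.39 for DNAJC18, while most of the others lie within 1 unit of 0.

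Among the HSP90 family none of 4 members passed the threshold by limma, edgeR or DESeq2, and 1 had an unadjusted p under 0.05. That was HSP90AB1, the constitutive cytosolic form, with 2026, 1456 and 2600 in endoderm, against 751, 1387 and 1422 in hESCs. Every endoderm library lay above every hESC library, by little at G1/S, and the difference was 0.79 ± 0.29 on the log2 scale (SE; limma adjusted p = 0.106). HSP90AA1, the inducible cytosolic form, averaged 761 ± 179 in endoderm and 722 ± 197 in hESCs (SD, n = 3 each). HSP90B1, the ER form also called GRP94, averaged 258 ± 130 in endoderm and 156 ± 30.7 in hESCs. Both overlapped between types. The pseudogene HSP90AB3P averaged 35.3 ± 3.30 and 44.9 ± 19.6.

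In the HSP70 and HSP110 families 1 member rose and 1 fell in endoderm. HSPA1B, a stress-induced HSP70 (region chr6:31893438-31893697, build hg18, plus strand), had 118, 86.5 and 142 in endoderm, against 34.8, 31.2 and 39.6 in hESCs. The types did not overlap, and each phase showed the same order. The difference was 1.66 ± 0.33 (limma adjusted p = 0.0197). An unnamed region on the opposite strand overlaps it and had 73.9, 61.6 and 127 in endoderm, against 5.30, 8.33 and 23.6 in hESCs. Whether the counting used strand is not given in the sources used here, so reads of the 2 regions cannot be told apart.

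HSPA12B, a distant HSP70 relative described in endothelial cells (chr20:3681524-3681701, hg18, plus strand), had 2.76, 4.99 and 3.42 in endoderm, against 80.9, 19.8 and 92.1 in hESCs. The endoderm values rest on 4, 3 and 2 reads, close to the 3-read floor, and lay below every hESC library. The difference was -3.55 ± 0.65 (limma adjusted p = 0.0166).

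HSPA8, the constitutive HSC70 (chr11:122433547-122433707, hg18, minus strand), had 91.8, 34.9 and 265 in endoderm, against 3.78, 29.2 and 25.4 in hESCs. All endoderm libraries were above all hESC libraries, with the closest pair at G1/S. Its difference of 2.62 ± 0.72 lay just outside the threshold (limma adjusted p = 0.0511). DESeq2 on the recovered reads called it (adjusted p = 0.000725), as did limma without the G1/S libraries (3.81, adjusted p = 0.0394), with a GC correction (2.42, 0.0466) and with median centring (2.59, 0.0410). It lay further from the threshold by edgeR (adjusted p = 0.0727), and by limma without the intensity trend (0.108), without endoderm S (2.27, 0.108) and without hESC S (2.27, 0.112).

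The other HSP70-type members were not called. HSPA9, the mitochondrial mortalin, averaged 22.7 ± 9.40 in endoderm and 10.5 ± 3.60 in hESCs, with no overlap between types in the region used. Its other region, of nearly the same mean, had 7.60, 25.0 and 17.1 in endoderm, against 0.757, 25.0 and 11.2 in hESCs, and there the types overlapped. HSPA5, the ER chaperone BiP, averaged 30.1 ± 8.84 and 24.7 ± 13.4, and HSPA14, which works at the ribosome, 29.4 ± 7.24 and 25.3 ± 10.6. HSPA4, an HSP110-type exchange factor, had 1927, 2760 and 1778 in endoderm, against 2059, 3286 and 2727 in hESCs. Its values overlapped between types, and the G1/S library was the highest within each.

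HSPD1, the mitochondrial HSP60, had 26.9, 44.9 and 20.5 in endoderm, against 70.4, 52.1 and 74.4 in hESCs. Every endoderm library lay below every hESC library, and the difference of -1.12 ± 0.42 did not pass (limma adjusted p = 0.111).

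Of the small HSP names 1 rose and 1 fell. HSPB8, which works with BAG3 in selective autophagy (chr12:118116629-118116911, hg18, plus strand), had 145, 83.2 and 207 in endoderm, against 34.0, 16.7 and 79.2 in hESCs. The types did not overlap, although the lowest endoderm and highest hESC libraries were close, and within each type G1/S was lowest. The difference was 1.90 ± 0.34 (limma adjusted p = 0.0160).

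HSPB2, a small HSP known from muscle (chr11:111289804-111289951, hg18, plus strand), had 0, 3.33 and 3.42 in endoderm, from 0, 2 and 2 reads, against 14.4, 22.9 and 21.9 in hESCs, from 19, 22 and 37 reads. Every endoderm library was at or under the 3-read floor. The difference was -2.93 ± 0.71 (limma adjusted p = 0.0368), and its size at such counts depends on the pseudocount.

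HSPB1, known as HSP27, had 2839, 5365 and 3968 in endoderm, against 3243, 3296 and 2495 in hESCs. The types overlapped through the G1 libraries, which were the only phase with endoderm lower, and the difference was 0.39 ± 0.25 (limma adjusted p = 0.292). It passed when either G1 library was left out, which takes the G1 pair out of the difference (0.69, limma adjusted p of 0.0457 or 0.0467). HSPB9, a testis form, ranged from 9.98 to 73.9 in endoderm and from 3.78 to 37.8 in hESCs. HSPB11, the cilia protein, ranged from 26.6 to 51.1 and from 23.0 to 32.5. Neither was called.

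Among the J proteins 4 rose and 1 fell of 27. DNAJC15, a J protein of the inner mitochondrial membrane (chr13:42579295-42579555, hg18, plus strand), had 117, 49.9 and 54.8 in endoderm, against 3.03, 3.12 and 4.73 in hESCs. Each hESC value rests on 3 to 8 reads, and each endoderm value on 30 to 170. The difference was 3.93 ± 0.51 (limma adjusted p = 0.00563), and it was the member with the smallest p.

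DNAJC18, a J protein of the ER membrane (chr5:138777684-138777874, hg18, minus strand), had 2.07, 0 and 3.42 in endoderm, from 3, 0 and 2 reads. In hESCs it had 110.5, 4.16 and 215, from 146, 4 and 364 reads. The hESC libraries thus spread widely, with G1/S close to the endoderm libraries, which were all at or under the floor. The difference was -4.39 ± 0.76 (limma adjusted p = 0.0138).

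DNAJC1, an ER membrane partner of BiP (chr10:22088122-22088299, hg18, minus strand), had 90.5, 28.3 and 65.0 in endoderm, against 26.5, 11.5 and 19.5 in hESCs. The lowest endoderm and the highest hESC library were close, and within each type G1/S was lowest. The difference was 1.55 ± 0.38 (limma adjusted p = 0.0372).

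DNAJC2, which acts at the ribosome with HSPA14 (chr7:102750401-102750515, hg18, minus strand), had 48.3, 31.6 and 47.9 in endoderm, against 22.7, 5.21 and 9.45 in hESCs. All endoderm libraries were higher, and the difference was 1.89 ± 0.47 (limma adjusted p = 0.0382). DNAJB2, a J protein that binds ubiquitin and is known from neurons (chr2:219859540-219859841, hg18, plus strand), had 957, 1739 and 1280 in endoderm, against 551, 820 and 630 in hESCs. All endoderm libraries were higher here too, and G1/S was the highest within each type. The difference was 0.97 ± 0.22 (limma adjusted p = 0.0317).

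**Figure D2:**
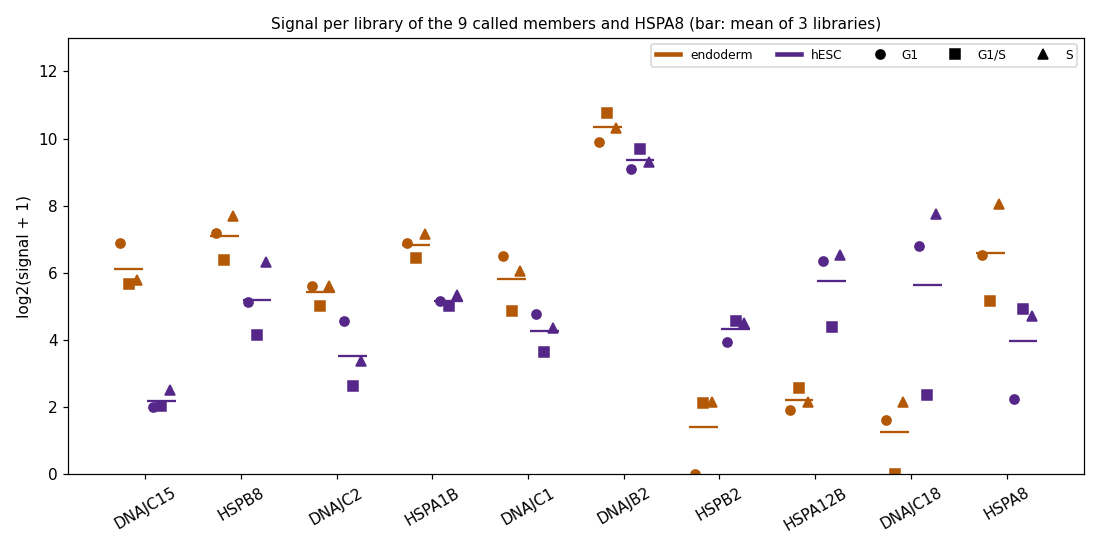
Signal of the 9 members that differed between cell types, and of HSPA8, in every library on the log2(signal + 1) scale. Endoderm libraries stand left of hESC libraries for each gene, the marker shape gives the phase, and short bars give the mean of 3 libraries. The types do not overlap for any of these genes, and the low group of DNAJC15, DNAJC18, HSPA12B and HSPB2 lies at a few reads.

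The other J proteins did not pass by limma. DNAJC21, a factor of ribosome assembly, averaged 36.1 ± 21.7 in endoderm and 7.58 ± 8.63 in hESCs (difference 2.40 ± 0.76, limma adjusted p = 0.0739), and DESeq2 called it (adjusted p = 0.0260). DNAJC22 averaged 32.6 ± 27.8 in endoderm and 7.91 ± 4.97 in hESCs. It and DNAJC21 passed when either G1 library was left out, with differences of 2.26 and 2.96, the same in both fits. DNAJC10, a disulfide reductase of the ER, averaged 45.2 ± 23.3 in endoderm and 90.3 ± 14.0 in hESCs, with no overlap (difference -1.09 ± 0.41, limma adjusted p = 0.110). DNAJA1, a cytosolic partner of HSP70, had 161, 64.9 and 151 in endoderm, against 94.6, 43.7 and 70.9 in hESCs. Endoderm was higher within each phase, while the types overlapped through the endoderm G1/S library.

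In the rest of the J proteins the types overlapped. DNAJA3 (mitochondrial), DNAJB1 (the classic HSP40), DNAJB5, DNAJB6 (known for holding polyglutamine proteins), DNAJB11 (ER lumen) and DNAJB12 (ER membrane) had differences from -0.25 for DNAJA3 to 0.68 for DNAJB11. DNAJB5 had 157, 143 and 231 in endoderm, against 112, 204 and 240 in hESCs. The library labelled S was the highest in both types.

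The DNAJC proteins of the ER (DNAJC3 and DNAJC14) differed by 0.75 and 0.18, and the mitochondrial DNAJC11 and DNAJC30 by -0.05 and 0.67. DNAJC5, a protein of secretory vesicles, and DNAJC7, which links HSP70 to HSP90, differed by 0.02 and 0.44. The nuclear DNAJC8, DNAJC9 and DNAJC17 differed by 0.51, 0.27 and 0.08. DNAJC4 differed by 0.09, DNAJC16 by -0.03, and DNAJC24, a factor of diphthamide synthesis, by -0.61. The smallest adjusted p among these 12 was 0.273 (DNAJC8, limma).

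DNAJC11 had 560, 1146 and 825 in endoderm, against 851, 1102 and 630 in hESCs. DNAJC16 had 38.7, 4.99 and 12.0 in endoderm, against 28.7, 6.25 and 14.2 in hESCs. In DNAJC11 the G1/S library was the highest of each type, and in DNAJC16 it was the lowest.

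None of the 4 exchange factors was called, and 1 had an unadjusted p under 0.05. That was BAG3, the partner of HSPB8, with 46.3, 21.6 and 65.0 in endoderm, against 34.0, 8.33 and 24.8 in hESCs. Endoderm was higher within each phase, and G1/S was lowest in both types (difference 1.02 ± 0.41, limma adjusted p = 0.130). BAG5 averaged 12.9 ± 3.72 in endoderm and 7.51 ± 0.201 in hESCs, with no overlap. BAG1 averaged 274 ± 70.8 in endoderm and 273 ± 75.8 in hESCs. HSPBP1 had 328, 537 and 397 in endoderm, against 313, 386 and 227 in hESCs, with the higher value in endoderm in each phase. edgeR and DESeq2 called none of the 4 either.

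None of the 8 CCT subunits was called by limma, edgeR or DESeq2, and 1, CCT2, had an unadjusted p under 0.05. The subunits make up 1 ring together, yet their differences between types ran from -0.99 ± 0.56 for CCT8 to 0.77 ± 0.31 for CCT2, with 4 above and 4 below 0. CCT3 averaged 2589 ± 495 in endoderm and 3046 ± 572 in hESCs. CCT4 averaged 41.6 ± 5.82 and 71.6 ± 21.5, and CCT6A 82.8 ± 43.0 and 62.3 ± 8.42. In all of these the types overlapped. TCP1 averaged 51.0 ± 8.51 in endoderm and 64.8 ± 20.2 in hESCs, and CCT5 averaged 217 ± 101 and 149 ± 45.0.

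In several CCT subunits both libraries labelled G1/S were the highest or the lowest of the 6. Over all regions both lay below the other 4 in 9.76% and above them in 10.1%. CCT7 had 2183, 4630 and 3339 in endoderm, against 2550, 4435 and 2847 in hESCs, so that both G1/S libraries were the highest. CCT8 had 71.8, 23.3 and 30.8 in endoderm, against 131, 16.7 and 189 in hESCs, with both G1/S libraries lowest. CCT2 had 457, 141 and 401 in endoderm, against 197, 126 and 209 in hESCs, again with both G1/S libraries lowest. CCT5 and TCP1 also had both G1/S libraries lowest, and with all 6 libraries no subunit passed a test of phase by limma, edgeR or DESeq2.

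**Figure D3:**
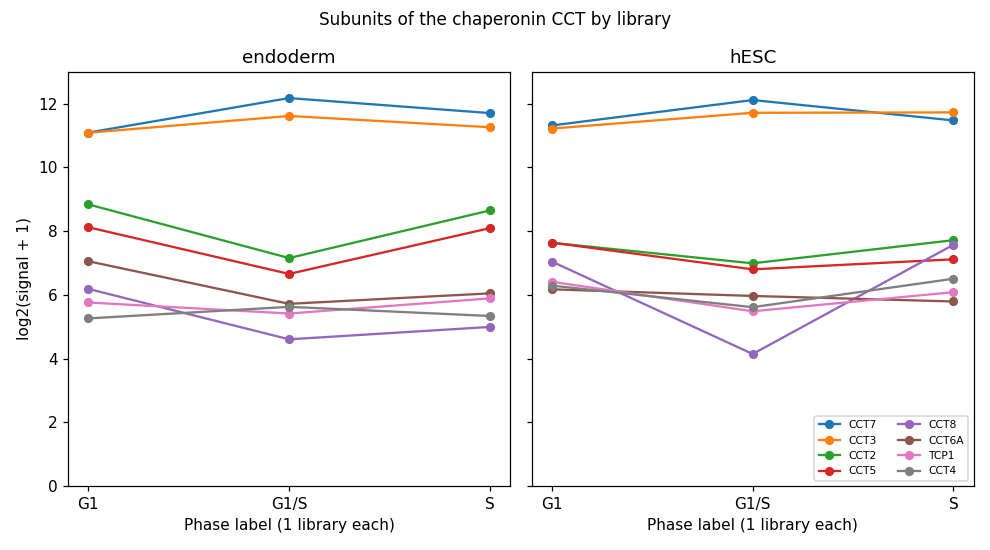
Signal of the 8 CCT subunits in endoderm (left) and hESC (right) libraries labelled G1, G1/S and S, on the log2(signal + 1) scale, with 1 library per point. CCT2, CCT5, CCT8 and TCP1 dip at G1/S in both types and CCT7 peaks there.

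The phase comparisons set libraries of both types together, with cell type as a term. No member and no region (0% of 14657) passed by limma in S against G1, G1/S against G1, S against G1/S, or G1/S against the mean of G1 and S. An unadjusted p under 0.05 was reached by 1, 11, 9 and 17 members in these comparisons in turn, and by 497, 2002, 1552 and 2260 of all regions. edgeR called no member in any of them. DESeq2 called 1 member, DNAJC18, in each of the 3 comparisons that hold G1/S (adjusted p of 0.00538, 0.000277 and 0.000224), which for this gene are set by the hESC libraries. That is 1 of 59 members (1.69%) each time, against 0.607%, 1.02% and 1.24% of all regions.

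The comparison of G1/S with the mean of G1 and S had the most members at a low unadjusted p: 17 of 59 (28.8%, 5 higher and 12 lower at G1/S), against 15.4% of all regions. The members' median difference was -0.26, against 0.06 over all regions. When the libraries were centred on their medians the same values were -0.06 and 0.26, so the members' median lay below that of all regions by about as much on either scale. Both G1/S libraries lay below the other 4 for 12 members (20.3%, against 9.76% of regions): BAG3, CCT2, CCT5, CCT8, DNAJA1, DNAJA3, DNAJB6, DNAJC9, DNAJC16, HSP90B1, HSPA14 and TCP1. They lay above the other 4 for 6 members (10.2%, against 10.1%): CCT7, DNAJC4, DNAJC5, DNAJC8, DNAJC11 and HSPA4.

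The size of these differences for CCT8 was -2.08 ± 0.60, for DNAJC16 -1.74 ± 0.53, for BAG3 -1.50 ± 0.44, for CCT2 -1.14 ± 0.33, for DNAJA1 -1.07 ± 0.33 and for CCT7 0.75 ± 0.22, each with a limma adjusted p of 0.314. HSPB8 also stood among the smallest p (-1.32 ± 0.36) and so did DNAJC18 (-3.40 ± 0.81). None passed. Without the hESC G1 library, limma called 6 members in this comparison (CCT2, CCT7, CCT8, DNAJC4, HSPB9 and HSPC152), against 6.24% of all regions. It called 1 without endoderm G1 (DNAJC18) and 1 without endoderm S (CCT8), each 1.69% of the members, against 1.17% and 1.06% of all regions.

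GC content of the transcript ends moved with this comparison. The rank correlation of a region's GC with its deviation in a library was -0.41, 0.26 and -0.16 in the endoderm libraries and -0.01, 0.43 and -0.12 in the hESC libraries (9871 named regions). Across members, GC against the G1/S difference gave r = 0.39 and rho = 0.45 (n = 59), and across all named regions r = 0.45 and rho = 0.51. These points share the same 6 libraries. Median GC was 41.2% in the 12 members low at G1/S and 53.1% in the 6 that were high, and 46.2% in all members, against 49.4% in all named regions. After a correction for GC the members' median difference at G1/S was -0.00, against 0.05 over the named regions, and 13 members (22.0%) had an unadjusted p under 0.05, against 14.1%.

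**Figure D4:**
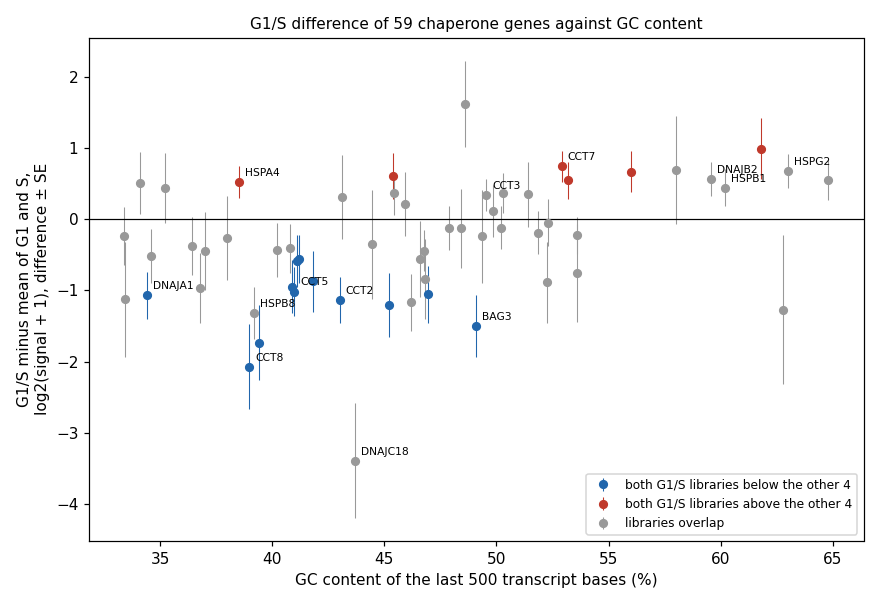
Difference of the G1/S libraries from the mean of G1 and S, on the log2(signal + 1) scale with its standard error, against GC content of the last 500 transcript bases for the 59 members. Colours mark the 12 members with both G1/S libraries below the other 4 (median GC 41.2%) and the 6 with both above (53.1%), and the points rise with GC (rho = 0.45).

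Of the names that only match by spelling, HSPC111 (NOP16) had 97.4, 138 and 221 in endoderm, against 96.8, 120 and 220 in hESCs. The values of the types were nearly equal within each phase, and in both the order was G1, G1/S, S from low to high. Its difference between S and G1 was 1.18 ± 0.35, the smallest unadjusted p of a member in that comparison (0.0104), with a limma adjusted p of 0.982. HSPG2 (perlecan) had 6548, 8198 and 3706 in endoderm, against 3484, 5350 and 3485 in hESCs. Its types overlapped through endoderm S, and its G1/S library was the highest within each type. HSPC152 (TRMT112) ranged from 48.2 to 141 in endoderm and from 30.3 to 136 in hESCs.

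Genes that work beside the members were read from lists that exclude them. Of 18 HSP90 co-chaperones and heat shock regulators, limma and edgeR called none in endoderm against hESC, with 5 and 6 at an unadjusted p under 0.05, while DESeq2 called 1, which was higher. Of 20 ER folding partners the same tools called none, with 4 and 3 at such a p, and DESeq2 called 1, which was higher. Of 11 prefoldin genes and chaperonin helpers they called none, with 3 each, and DESeq2 called 1, which was higher. Over all regions 34.2% had such a p by limma and 32.8% by edgeR, and DESeq2 called 19.0%. The lists' median differences were 0.03, 0.08 and 0.25, against 0.02 over all regions.

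Mitochondrial folding factors and proteases had 2 of 12 lower in endoderm by limma and none higher, where 7.6% of all regions were lower, with a median difference of -0.28. An unadjusted p under 0.05 was reached by 5 of the 12, against 34.2% of all regions. edgeR and DESeq2 each called 3 lower and none higher, with 4 at such a p, against 32.8% and 31.1% of all regions. TRAP1, the mitochondrial HSP90, had 1487, 2016 and 1152 in endoderm, against 2904, 3347 and 2411 in hESCs (difference -0.92 ± 0.21, limma adjusted p = 0.0302). CLPB, a disaggregase of mitochondria, had 44.9, 79.9 and 70.2 in endoderm, against 228, 245 and 149 in hESCs (difference -1.67 ± 0.34, limma adjusted p = 0.0228). Both fell in endoderm with no overlap between types.

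Of the 9 calls between cell types, only that of DNAJC15 held in each of the 6 fits that left out 1 library, with adjusted p of up to 0.0431. DNAJC18 and HSPA12B lost theirs without hESC S (differences -3.78 and -3.12, adjusted p of 0.0739 and 0.0628), and HSPB8 without either G1/S library (1.72, up to 0.0863). HSPA1B, DNAJB2 and DNAJC2 lost theirs without either library of G1/S or of S (up to 0.0809, 0.156 and 0.155), and DNAJC2 also by edgeR. HSPB2 kept its call only without endoderm G1, and DNAJC1 lost it without any 1 library (0.0565 to 0.137). All of these adjusted p are limma's, and no difference changed sign in any of these fits. With phase as a term, leaving out either library of a phase takes that pair out of the difference between types. Both fits then give the same difference, so the 6 fits are not 6 separate checks.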

How the data were processed

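The authors deposited 1 table of signal per library for each region where 3' read ends gather. Builds hg18 and NCBI36 and the tools DESeq 1.5.24, Bowtie 0.12.7 and CASAVA 1.5 are listed in the submitters' processing notes, without roles. At a tolerance of 1e-06, 100% of the deposited signal values are whole reads divided by 1 size factor per library. Member positions are the deposited ones.

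Regions with log2(signal + 1) of at least 1 in at least 3 of 6 libraries (14657) were fitted with limma 3.58.1 in R 4.3.3 (lmFit, eBayes with an intensity trend), with terms for type and phase, Benjamini-Hochberg adjustment and a threshold of 0.05. Residual degrees of freedom were 2, and the prior's 5.46. A fold on this scale understates changes of low genes. edgeR 4.0.16 and DESeq2 1.42.0 were run on the recovered reads, all of which came out whole, and called 1990 and 2780 regions between types, against 2125 by limma. In simulated data the changed genes were drawn only from those with a mean above the median. All genes had the same spread of counts, and no phase effect was put in. Among 14657 genes the limma step there recovered 98.5% of 8-fold and 13.4% of 2-fold changes. These rates do not cover members at a few reads. Counting intervals are exact 95% Poisson intervals.

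The phase labels pair the libraries of the types 1 to 1, so phase is a term of the fit. GC was taken from the last 500 bases of later transcript models for 95.3% of named regions and 59 of 59 members. The genes given in every library are those called, the 5 with the smallest p in each comparison and the one with the highest mean in each role class. The members, lists and tests were chosen with earlier results of these data known. Protein sequences were not analysed here.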

Additional observations from a re-analysis of the deposited data

Results flagged for a closer look

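For 11 members a change between phases ran in opposite directions in endoderm and hESCs, with 95% Poisson intervals that did not overlap between the phases in either type. That is 18.6% of the 59 members, against 12.9% of all 14657 regions. The intervals compare single libraries and cover counting error only. The difference between the types was not tested, because 1 library per type and phase leaves no spread for it. Groups of 3 are too small for a test of outlying libraries. Values are endoderm change minus hESC change on the log2(signal + 1) scale.

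Between S and G1, the value was -5.75 for HSPB9 (endoderm -2.73, hESC 3.02), which had 73.9 in endoderm G1 and 37.8 in hESC S and at most 10.3 in the other libraries. The values were -2.87 for HSPC152 (endoderm -0.74, hESC 2.13), -1.72 for CCT8 (endoderm -1.19, hESC 0.53) and -1.58 for DNAJB6 (endoderm -0.69, hESC 0.89). They were 2.03 for DNAJC4 (endoderm 1.11, hESC -0.92), 1.02 for DNAJC7 (endoderm 0.60, hESC -0.42), 0.99 for DNAJC11 (endoderm 0.56, hESC -0.43) and 0.86 for HSPB1 (endoderm 0.48, hESC -0.38). HSPC152 and DNAJB6 each share their 3' end with a region on the opposite strand. Their reads cannot be told apart from those of that region, so these changes may not belong to the member.

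Between G1/S and G1 the value was -4.03 for HSPA8 (endoderm -1.37, hESC 2.66), whose hESC G1 library holds 5 reads, and -1.36 for HSP90AB1 (endoderm -0.48, hESC 0.88). Between S and G1/S it was -1.21 for DNAJB12 (endoderm -0.53, hESC 0.68).

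The G1 libraries of both types are ends of 10 of these 11 differences, and most pairs of phases compared hold G1. Deviations in endoderm G1 fell with GC content over all named regions (rank correlation -0.41, against -0.01 in hESC G1). The part of this in the differences was not tested.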

How the results depend on the processing

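Of the values for single members, 1385 kept their side of the threshold under the alternatives, 40 lost the call and 21 gained one. Most of the 1385 were called in neither fit, so they do not measure how firm the calls are. All 40 lost calls were among the 9 members called between types in the main fit. No value that was called in either fit changed sign. Signs of values not called could change: between types 43 members were above 0 by limma, 39 by edgeR and 44 by DESeq2. The median member difference between types stayed between 0.22 and 0.34 under 19 alternatives. The 6 members higher in endoderm became 3 without the intensity trend, 3 with no replicate block (no phase term, so libraries unpaired) and 2 without both G1/S libraries. Calls over all 14657 regions, in either direction, fell as well, to 1466, 1825 and 415 in turn, against 2125 in the main fit. Leaving out 1 library gave 2 to 8 members higher and 0 to 3 lower, where 3 were lower with all 6. Over the same fits the share of all regions called in either direction ran from 2.86% to 16.0%, against 14.5% with all libraries. The 0 came without hESC S, and each of the 4 fits without a G1/S or S library gave 2 higher. Fits without either library of the same phase share their differences between types and are not separate checks. With a stricter filter, log2(signal + 1) of at least 5 in at least 3 libraries, 44 members were tested and 0 were lower by limma, since the 3 lower ones failed that filter. By phase, leaving out 1 library gave 0 to 6 members for G1/S against the mean of G1 and S, where 0% to 6.24% of all regions were called. It gave 0 to 1 for S against G1/S, where 0% to 1.67% of all regions were called. DESeq2 gave 1, 1 and 1 for G1/S against G1, S against G1/S and G1/S against the mean of G1 and S. The shares of all regions were 0.607%, 1.02% and 1.24%. The cause of these moves was not tested beyond that filter. Depth limits the members at a few reads in 1 type (DNAJC15, DNAJC18, HSPA12B and HSPB2), whose size depends on the pseudocount, and no library has a replicate of its type and phase.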

Other observations

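Several members share their 3' end with a region on the opposite strand. Besides HSPA1B these are DNAJB6, HSP90AB3P and CCT2, each with an unnamed region, HSP90B1 with DKFZp547P055, and HSPC152 with ESRRA. As for HSPA1B, reads of a member and of the region opposite it cannot be told apart. The region opposite HSP90AB3P had 298, 34.9 and 173 in the endoderm libraries (G1, G1/S, S), against 7.57, 32.3 and 144 in hESCs. The region opposite DNAJB6 had 128, 23.3 and 97.6 in endoderm, against 4.54, 11.5 and 177 in hESCs. DKFZp547P055 had 173, 49.9 and 164 in endoderm, against 16.6, 31.2 and 75.0 in hESCs. In these 3 regions the hESC library labelled S was the highest of its type and hESC G1 the lowest, while endoderm G1 was the highest of its type. The regions opposite CCT2 and HSPC152 showed the same at lower values. That opposite HSPA1B shared the hESC order, but its highest endoderm library was S.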
